A study of Mus musculus with 8 samples.

Results

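Chaperone transcripts were examined in the tibialis anterior (TA) muscle of aged wild-type (WT) and *Mybpc2* knockout (C2-/-) mice. The set holds 10 genes of the 16686 in the deposited table, chosen by symbol: the small heat shock proteins *Cryab*, *Hspb1*, *Hspb2*, *Hspb3*, *Hspb6*, *Hspb7* and *Hspb8*, the co-chaperone *Bag3*, and the heat shock proteins *Hspa1b* and *Hsp90aa1*. All 10 passed the filter on low counts and were among the 12542 genes tested. WT mice were male and of the FVBN strain. C2-/- mice were male, on the same FVBN background, and carried a Neo cassette with LoxP sites on either side in place of exons 2 to 22 of *Mybpc2*, the gene of fast myosin binding protein-C. This is a change of the germ line, so the muscle fibres are not the only cells that lack the gene. TA muscles were taken at 22 months by the labels (another label names 2 months), and each group held 4 mice with 1 library each. The mice carry the numbers 1 to 4 in each group (WT 1 to WT 4 and C2-/- 1 to C2-/- 4).

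Small heat shock proteins share an alpha-crystallin domain, bind unfolding proteins without using ATP and hold them until other chaperones refold or remove them. In striated muscle, several of them sit at the Z-disc and on desmin and titin, where contraction strains proteins. HSPB8 with BAG3 passes damaged Z-disc proteins such as filamin C to HSP70 and on to autophagy, a route called chaperone-assisted selective autophagy. HSPB2 with HSPB3 forms a separate complex in differentiated muscle. *Hspa1b* encodes a stress-inducible HSP70 and *Hsp90aa1* the stress-inducible HSP90, and both are classical targets of heat shock factor 1 (HSF1).

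Libraries held between 25425993 and 29747692 counts. The smallest count behind a value of the 10 genes was 60.0, for *Hspa1b* in WT 1, so none of these values was limited by detection. Values are given as CPM (counts in proportion to the size of the library, after TMM scaling), and as the authors' TPM (which also allows for transcript length) where genes are compared with each other. The targeted gene, *Mybpc2*, measured between 4964 and 7392 CPM in WT and between 3.85 and 38.4 CPM in C2-/-, with the highest C2-/- value in C2-/- 3 and at most 4.35 CPM in the other 3 (log2 fold change -8.82, adjusted p = 0.0075, edgeR). The tissue was fast muscle by its markers: the 10 fast fibre genes summed to between 150000 and 210000 CPM in WT and between 157000 and 184000 CPM in C2-/-, against between 74.0 and 121 CPM for the 9 slow fibre genes over all mice. WT 2 stood apart from the other libraries. It held the highest CPM of the 8 mice for 27.5% of the tested genes, against between 6.57% and 12.6% for each of the others, and 574 of its genes were more than 2-fold over the median of the other 7 mice, against between 104 and 188. Genotype differences of the genes that stood highest in WT 2 are therefore also given without it.

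*Cryab* (gene ID 12955, αB-crystallin, a desmin and titin chaperone) and *Hspb2* (gene ID 69253) lie head to head on chromosome 9 of GRCm38, at chr9:50751325-50756636 on the plus strand and chr9:50751072-50752354 on the minus strand. In GENCODE vM21, 252 of the 834 exonic bases of *Hspb2* (30.2%) are also exonic in *Cryab*, so without strand in the counting, reads in this stretch cannot be given to one gene or the other. *Hspb3* (gene ID 56534) lies at chr13:113662896-113663676, *Hspb6* (gene ID 243912) at chr7:30552556-30555439, *Hspb7* (gene ID 29818) at chr4:141420779-141425310 and *Bag3* (gene ID 29810) at chr7:128523583-128546981. The deposited intervals of *Chchd2-ps*, *Gm13201*, *LOC102638183*, *Zfp534* and *Zfp979* overlap that of *Hspb7*, where GENCODE vM21 has no overlapping gene. That of *Dixdc1* overlaps *Cryab* and *Hspb2*. Whether these overlaps touched the counts is not known. *Hspb1* (gene ID 15507) at chr5:135887351-135889564 shares 99.8% of 477 aligned bases with *Gm9817*, and *Hsp90aa1* (gene ID 15519) at chr12:110691036-110697116 shares 99.5% of 2255 aligned bases with *Gm12346*. *Hspb8* (gene ID 80888) lies at chr5:116406815-116422864. The deposited table lists *Hspb8* and *Hsp90aa1* on the plus strand and GENCODE vM21 on the minus strand, and whether this touched their counts and so their levels is not known. *Hspa1b* (gene ID 15511) and *Hspa1a* (gene ID 193740) are neighbours on chromosome 17 with 99.2% identity over 2201 aligned bases, and the deposited interval of *Hspa1b*, chr17:34956429-34972156, spans that of *Hspa1a*. The split of reads between this pair is uncertain, and their sum is given beside the values of *Hspa1b*.

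HSF1 binds inverted repeats of GAA and TTC (heat shock elements), so the 250 bases before the start of each gene were searched for the letters GAANNTTC and TTCNNGAA, each of which is its own reverse complement. RefSeq promoter sequences (GRCm38.p6) were at hand for 7 of the 10 genes. A match was present in 4 of these 7, *Hspb1*, *Hspb3*, *Hspb6* and *Hspa1b*, and in 14.5% of all 27025 genes with a promoter sequence. *Hspb7*, *Hspb8* and *Bag3* held no match in this window. The longer element of 3 units, GAA and TTC in turn with NN between them, was present in 0 of the 7 and in 0.514% of all genes. *Hspb1* was the only one of the 7 with a pair of matches, and that of *Hspb6* stood in the second of its 2 promoter entries. The letters TATAAA, searched on both strands, were present before *Hspb3* and *Hspb6* and in 14.3% of all genes. The matches, in capitals, stand in these 30-base stretches, each written 5′ to 3′ on the strand of its gene. They are shown as a description, and a link between the matches and the values of the genes was not tested. The neighbouring *Hspa1a* has the same 30 bases as *Hspa1b*. The *Hspb1*, *Hspb6* and *Hspa1b* stretches lie before the RefSeq start used here but inside the longer gene intervals of the deposited table.
Hspb1, chr5:135887801-135887830, plus strand: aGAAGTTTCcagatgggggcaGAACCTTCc
Hspb3, chr13:113663882-113663911, minus strand: ctccccgaatgGAATTTTCaggcagaggga
Hspb6, chr7:30553170-30553199, plus strand: aagtaattattGAAGTTTCtaaataaggaa
Hspa1b, chr17:34959324-34959353, minus strand: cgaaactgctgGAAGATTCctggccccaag
Hspa1a, chr17:34972242-34972271, minus strand: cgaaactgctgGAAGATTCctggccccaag

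Aged TA muscle held most of the small heat shock proteins at a high level per transcript length. *Hspb6* (HSP20, a chaperone abundant in heart and skeletal muscle) was the highest, with a mean of 3166 TPM and a range of 2410 to 3861 TPM, and ranked 31 of 16686 genes. *Cryab* followed with a mean of 1624 TPM and a range of 960 to 2490 TPM, at rank 55. The HSP70 gene *Hspa1b* was the lowest, with a mean of 2.80 TPM and a range of 1.47 to 4.36 TPM, at rank 8863. Between these ends lay *Hspb7* (544 TPM), *Hspb8* (492 TPM), *Hspb1* (439 TPM), *Bag3* (224 TPM), *Hspb2* (175 TPM), *Hspb3* (56.5 TPM) and *Hsp90aa1* (22.1 TPM), all as means of 8 mice. The small heat shock proteins therefore spanned from 56.5 to 3166 mean TPM, and each of them was above both *Hsp90aa1* and *Hspa1b* by its mean.

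Each neighbour in this order was compared with the next within every mouse. The order came from the mean TPM of these same 8 mice, so the p-values measure only how steadily it held from mouse to mouse. An error of level shared by all mice would not show in them. In 7 of the 9 neighbouring pairs, the order was the same in all 8 mice (two-sided exact sign-flip permutation test, p = 0.00781 for each, the smallest that 8 mice allow, adjusted p = 0.01 over 9 pairs). The TPM of *Hspb6* was 2.01-fold that of *Cryab* (geometric mean of the within-mouse ratios), *Cryab* 3.23-fold that of *Hspb7*, *Hspb1* 1.83-fold that of *Bag3*, and *Bag3* 1.29-fold that of *Hspb2*. *Hspb2* was 3.07-fold *Hspb3*, which was 2.62-fold *Hsp90aa1*, and *Hsp90aa1* was 8.08-fold *Hspa1b*. *Hspb7* and *Hspb8* did not differ beyond their spread (ratio 0.999, *Hspb7* higher in 3 of 8 mice, exact permutation p = 0.992, adjusted p = 0.992). The order of *Hspb8* over *Hspb1* was also within the spread (ratio 1.19, higher in 7 of 8 mice, exact permutation p = 0.125, adjusted p = 0.141). The mouse with the opposite order was WT 2, with 622 TPM of *Hspb8* and 976 TPM of *Hspb1*.

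**Figure D1:**
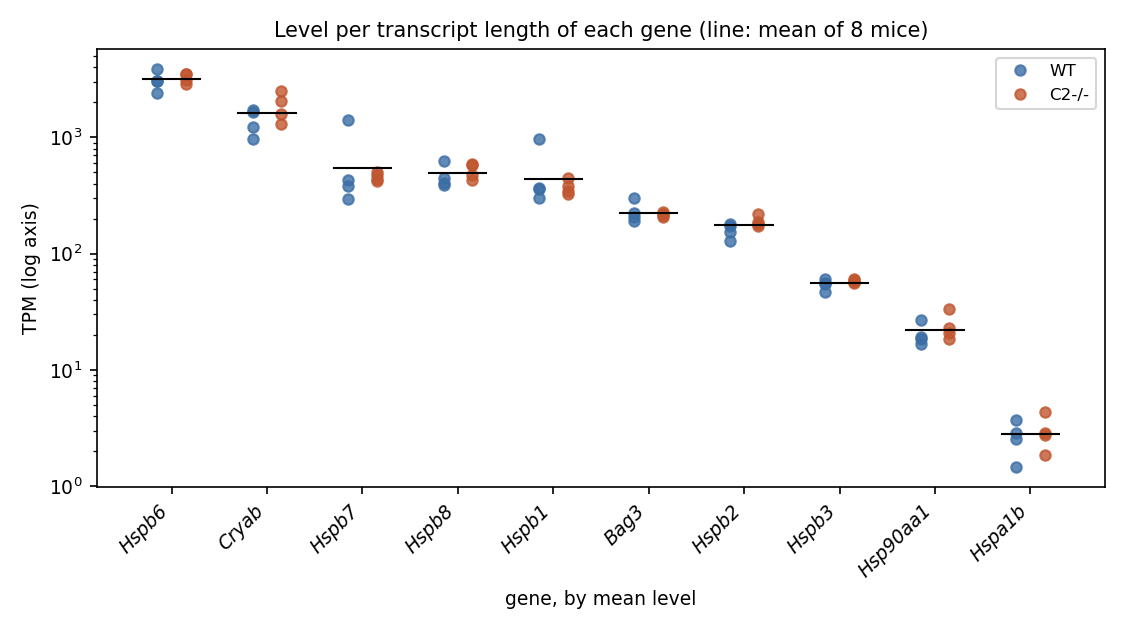
Level of each gene in TPM (log axis) in 4 WT (blue) and 4 C2-/- (orange) TA muscles, with a line at the mean of 8 mice. The genes run from *Hspb6* with a mean of 3166 TPM to *Hspa1b* with 2.80 TPM, and 1 WT mouse, WT 2, lies above the rest for *Hspb7* (1406 TPM) and *Hspb1* (976 TPM).

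The comparison of the genotypes asks whether chaperone genes differ in aged muscle that lacks fast myosin binding protein-C. No difference past the threshold was found for any of the 10 genes. At an unadjusted p under 0.05, 0 of 10 genes passed with edgeR's quasi-likelihood test, with limma-voom and with DESeq2, where 5.29% of all tested genes (663 of 12542) passed with edgeR. At an adjusted p under 0.05, 0 of 10 genes passed, against 0.0319% of all tested genes, and the adjusted p-values of the 10 lay between 0.968 and 0.999. The CPM ranges of the genotypes overlapped for all 10 genes, where they did not overlap for 3.38% of all tested genes. In C2-/-, 6 of the 10 had a higher and 4 a lower fitted level, and the median log2 fold change was 0.05 (-0.02 over all tested genes). Without WT 2, all 10 had a higher fitted level in C2-/-, with a median of 0.15, where 49.5% of all tested genes were higher and their median was -0.0024, and still 0 of 10 passed at an unadjusted p under 0.05. With C2-/- 3 left out instead, *Hspb1*, *Hspb6*, *Hspb7*, *Hspb8*, *Bag3*, *Hspa1b* and *Hsp90aa1* had a lower fitted level in C2-/-. *Cryab*, *Hspb2* and *Hspb3* were then still higher. The p-values measure the spread between mice of a group.

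The intervals show which sizes of difference remain possible. *Hspb3* was bounded most closely, with C2-/- at 1.02-fold of WT (95% interval 0.874 to 1.19). *Hspb6* stood at 0.996-fold (0.771 to 1.29), *Hspb2* at 1.15-fold (0.949 to 1.38) and *Bag3* at 0.886-fold (0.687 to 1.14). For *Hspb7* the interval ran from 0.332-fold to 1.35-fold and for *Hspb1* from 0.39-fold to 1.24-fold, so a level in C2-/- 2-fold below that of WT lay within both intervals. Both intervals include WT 2, and without that mouse the log2 fold changes were 0.29 and 0.11. The two-sided exact permutation test of mean log2 CPM over all mice gave p = 0.943 for *Hspb7* and 0.714 for *Hspb1*.

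The αB-crystallin gene *Cryab* measured 837, 848, 541 and 470 CPM in WT 1 to WT 4 and 751, 573, 1128 and 896 CPM in C2-/- 1 to C2-/- 4. The highest value was in C2-/- 3 and the lowest pair in WT 3 and WT 4, with the groups overlapping. The means were 674 ± 197 CPM in WT and 837 ± 235 CPM in C2-/- (SD, n = 4 each), a log2 fold change of 0.31 (standard error 0.24, unadjusted p = 0.229 with edgeR, adjusted p = 0.968). With each mouse left out, it lay between 0.14 (without C2-/- 3) and 0.46 (without C2-/- 2), and it was 0.45 without WT 2.

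*Hspb2* measured 75.9, 58.0, 68.6 and 64.9 CPM in WT 1 to WT 4 and 78.5, 69.5, 71.2 and 87.0 CPM in C2-/- 1 to C2-/- 4. Only WT 1 lay within the range of C2-/-, and the other 3 WT mice were below it. The log2 fold change was 0.20 (standard error 0.12, unadjusted p = 0.14 with edgeR, the smallest of the 10 genes, adjusted p = 0.968). Without WT 1, the ranges no longer overlapped, as held for 5.92% of all tested genes without that mouse. Its partner *Hspb3* ranged from 20.6 to 22.4 CPM in WT and from 20.7 to 23.7 CPM in C2-/- (log2 fold change 0.03, unadjusted p = 0.777 with edgeR, adjusted p = 0.991). It was among the steadiest genes of its level: the biological coefficient of variation from the fit was higher in all but 0.615% of the 3905 genes within 2-fold of its mean CPM. *Hspb6* ranged from 1714 to 2778 CPM in WT and from 1901 to 2462 CPM in C2-/-, with a log2 fold change of -0.01 (unadjusted p = 0.974 with edgeR, adjusted p = 0.999).

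*Hspb7*, the cardiovascular small heat shock protein that binds filamin C, measured 669, 2336, 525 and 452 CPM in WT 1 to WT 4. In C2-/- 1 to C2-/- 4 it measured 673, 659, 623 and 712 CPM. WT 2 had 3.28 times the value of the next mouse, and the 4 C2-/- mice lay close together with a coefficient of variation of 5.52% (90.2% in WT). The log2 fold change was -0.58 over all mice (standard error 0.46, unadjusted p = 0.233 with edgeR, adjusted p = 0.968) and 0.29 without WT 2 (unadjusted p = 0.0663, adjusted p = 0.874). The direction of the difference turned when this 1 mouse was left out.

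*Hspb1* (HSP25, which binds actin filaments and desmin) had the same mouse at its top. It measured 172, 500, 127 and 173 CPM in WT 1 to WT 4 and 180, 139, 205 and 152 CPM in C2-/- 1 to C2-/- 4. WT 2 was 2.44 times the next highest mouse, which was C2-/- 3. The log2 fold change was -0.52 (standard error 0.38, unadjusted p = 0.193 with edgeR, adjusted p = 0.968) and 0.11 without WT 2 (unadjusted p = 0.509).

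*Hspb8* and its partner *Bag3*, the core of chaperone-assisted selective autophagy, were also highest in WT 2. *Hspb8* measured 403, 668, 348 and 444 CPM in WT 1 to WT 4 and 424, 432, 558 and 530 CPM in C2-/- 1 to C2-/- 4. *Bag3* measured 300, 466, 292 and 275 CPM in WT 1 to WT 4 and 294, 279, 305 and 303 CPM in C2-/- 1 to C2-/- 4. Apart from WT 2, the 7 mice held *Bag3* within the narrow range of 275 to 305 CPM. The log2 fold change of *Hspb8* was 0.06 (unadjusted p = 0.765 with edgeR) and 0.29 without WT 2 (unadjusted p = 0.0574, adjusted p = 0.851). That of *Bag3* was -0.18 (unadjusted p = 0.314 with edgeR) and 0.04 without WT 2 (unadjusted p = 0.696).

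The HSP70 gene *Hspa1b* measured 2.31, 4.82, 3.59 and 5.79 CPM in WT 1 to WT 4 and 2.88, 4.05, 6.53 and 3.95 CPM in C2-/- 1 to C2-/- 4. The groups overlapped over nearly their whole range, with the highest value in C2-/- 3 and the lowest in WT 1. The log2 fold change was 0.08 (standard error 0.31, unadjusted p = 0.812 with edgeR), -0.18 without C2-/- 3, -0.12 without WT 1, and 0.19 for the summed counts of *Hspa1a* and *Hspa1b*. *Hspa1a* alone measured between 0.81 and 2.39 CPM in WT and between 1.63 and 3.76 CPM in C2-/-, again with the highest value in C2-/- 3. *Hsp90aa1* measured 26.5, 46.0, 26.5 and 30.4 CPM in WT 1 to WT 4 and 35.8, 29.8, 50.7 and 26.8 CPM in C2-/- 1 to C2-/- 4. WT 2 and C2-/- 3 were its highest mice, and the other 6 lay at or under 35.8 CPM. Its log2 fold change was 0.14 (unadjusted p = 0.555 with edgeR), 0.37 without WT 2 and -0.06 without C2-/- 3.

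**Figure D2:**
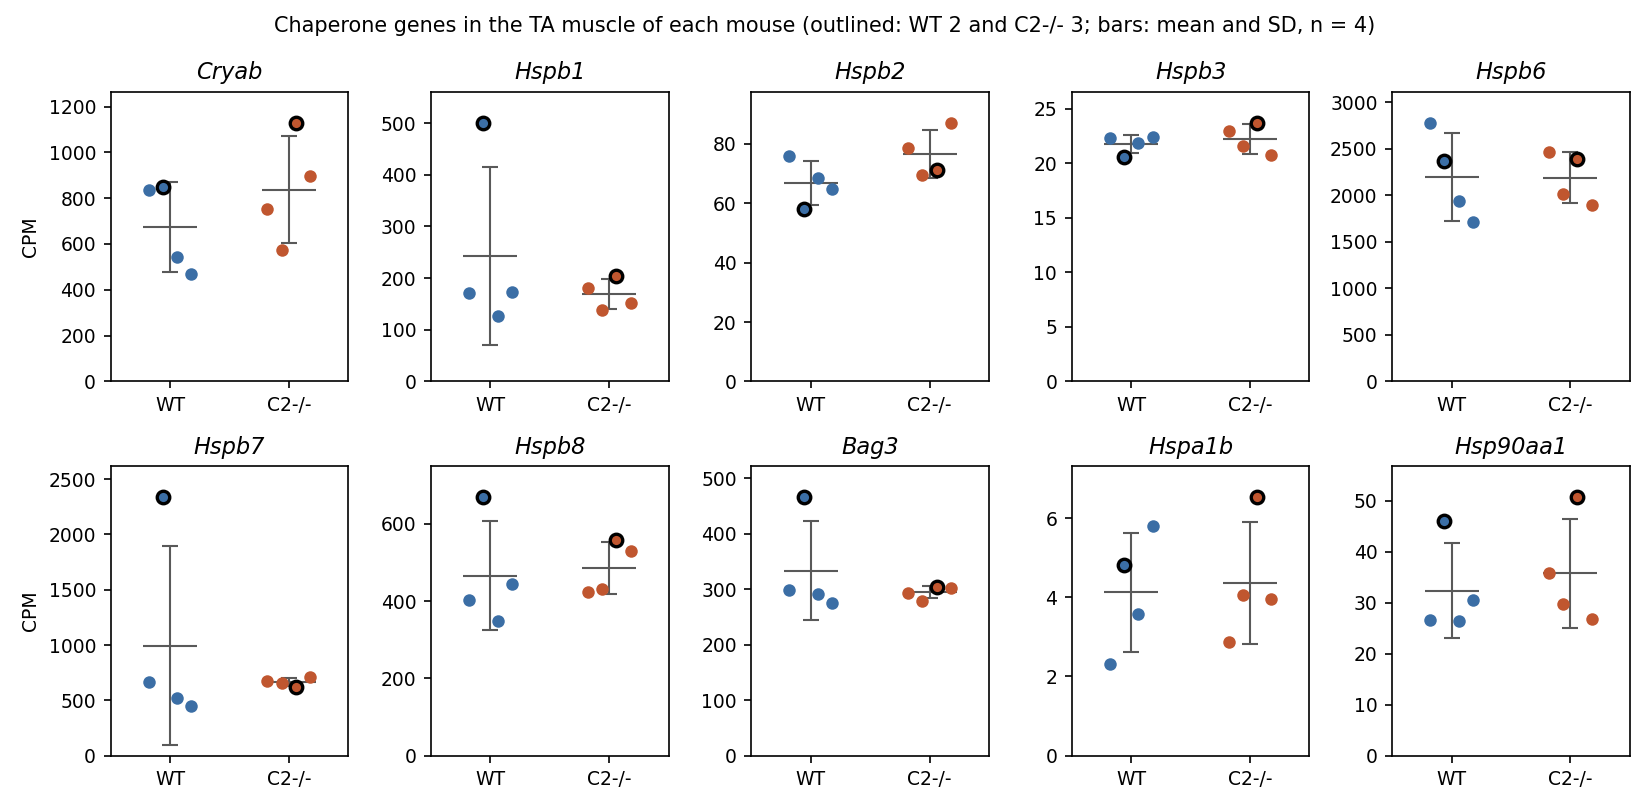
CPM of each gene in each mouse (1 point per mouse, axis from 0), with the mean and SD of 4 mice per genotype, and WT 2 and C2-/- 3 outlined in black. WT 2 stands above the other mice for *Hspb7* (2336 CPM), *Hspb1* (500 CPM), *Hspb8* (668 CPM) and *Bag3* (466 CPM), and C2-/- 3 is the highest for *Cryab* (1128 CPM), *Hspb3*, *Hspa1b* and *Hsp90aa1*.

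**Figure D3:**
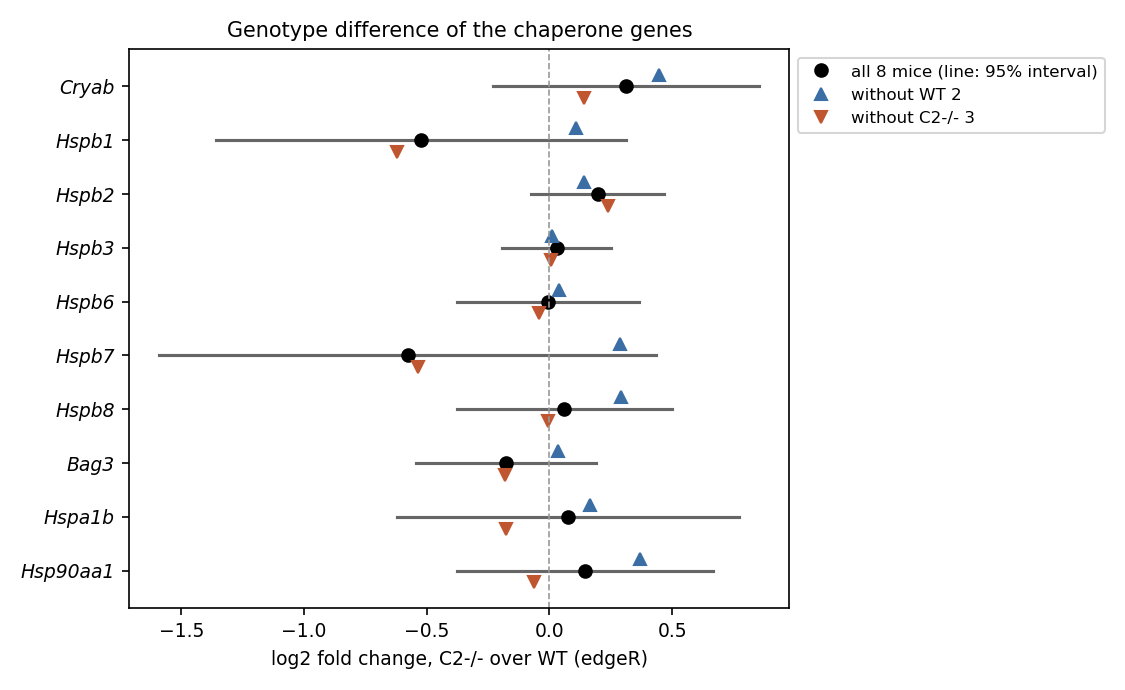
Fitted log2 fold change of each gene, C2-/- over WT, with its 95% interval over all 8 mice (black), and the value without WT 2 (blue) and without C2-/- 3 (orange). All 10 intervals hold 0, and without WT 2 *Hspb7*, *Hspb1*, *Bag3* and *Hspb6* move to the other side of 0. With C2-/- 3 left out, *Hspb8*, *Hspa1b* and *Hsp90aa1* do so.

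The highest values of the 10 genes fell mostly on 2 mice, 1 of each genotype. WT 2 was the highest mouse for 4 of the 10 genes (*Hspb1*, *Hspb7*, *Hspb8* and *Bag3*) and C2-/- 3 for another 4, where these mice were highest for 27.5% and 11.1% of all tested genes. In WT 2, a pair of the genes, *Hspb7* and *Hspb1*, were more than 2-fold over the median of the other 7 mice (3.54-fold and 2.91-fold). They ranked 137 and 210 of the 12542 genes by this ratio in WT 2. *Bag3*, *Hspb8* and *Hsp90aa1* in WT 2 stood at 1.59-fold, 1.55-fold and 1.54-fold of that median. *Cryab* in the same mouse was at 1.13-fold, and *Hspb2* and *Hspb3* had their lowest values there. In C2-/- 3, *Hsp90aa1* stood at 1.7-fold of the median of the other mice, *Hspa1b* at 1.64-fold, *Cryab* at 1.5-fold and *Hspb3* at 1.08-fold. *Hspb7* in C2-/- 3 was at 0.932-fold. Measured as variation for their level, *Hspb7* and *Hspb1* exceeded 98.3% and 97.5% of the genes within 2-fold of their mean CPM, *Hsp90aa1* 89.5%, *Cryab* 89.3%, and *Hspb2* 32.9%.

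Other partners of the chaperone system were read in the same mice. Among the 5 partners of chaperone-assisted selective autophagy, 3 had their highest value in WT 2. The autophagy receptor *Sqstm1* measured 1380 CPM there and between 426 and 662 CPM in the other 7 mice. *Map1lc3b*, which encodes an LC3 protein of the autophagosome membrane, measured 478 CPM against between 182 and 267 CPM. The client *Flnc* (filamin C) measured 943 CPM against between 415 and 714 CPM. The adaptor *Synpo2*, which links the BAG3 complex to membrane fusion, instead had its lowest value in WT 2, at 423 CPM against between 733 and 995 CPM, and the ubiquitin ligase *Stub1* measured 82.2 CPM, inside the range of the other mice of 81.3 to 103 CPM. In C2-/- 3, the HSP70 partner *Hsph1* measured 96.9 CPM against between 36.2 and 65.5 CPM in the other mice. The constitutive HSP70 *Hspa8* measured 1370 CPM in C2-/- 3 and between 864 and 1120 CPM elsewhere. The HSP40 co-chaperone *Dnajb1* was not raised in C2-/- 3, where it measured 6.21 CPM, 0.788-fold of the median of the other mice. It stood at 1.08-fold in WT 2 and was highest in WT 4. Of all 68 companion chaperone genes tested, 26 (38.2%) were highest in WT 2 and 22 (32.4%) in C2-/- 3, both above their shares of all tested genes. Of the 11 HSP70 and HSP110 genes, 6 were highest in C2-/- 3 and 2 in WT 2, and of the 12 HSP90 genes and co-chaperones, 6 and 5. For the 10 HSP40 co-chaperones these counts were 2 and 4, and for the 12 chaperonins and mitochondrial chaperones 5 and 6. *Hsph1*, *Hspa8*, *Dnajb1*, *Flnc* and *Stub1* were named after their values had been seen.

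**Figure D4:**
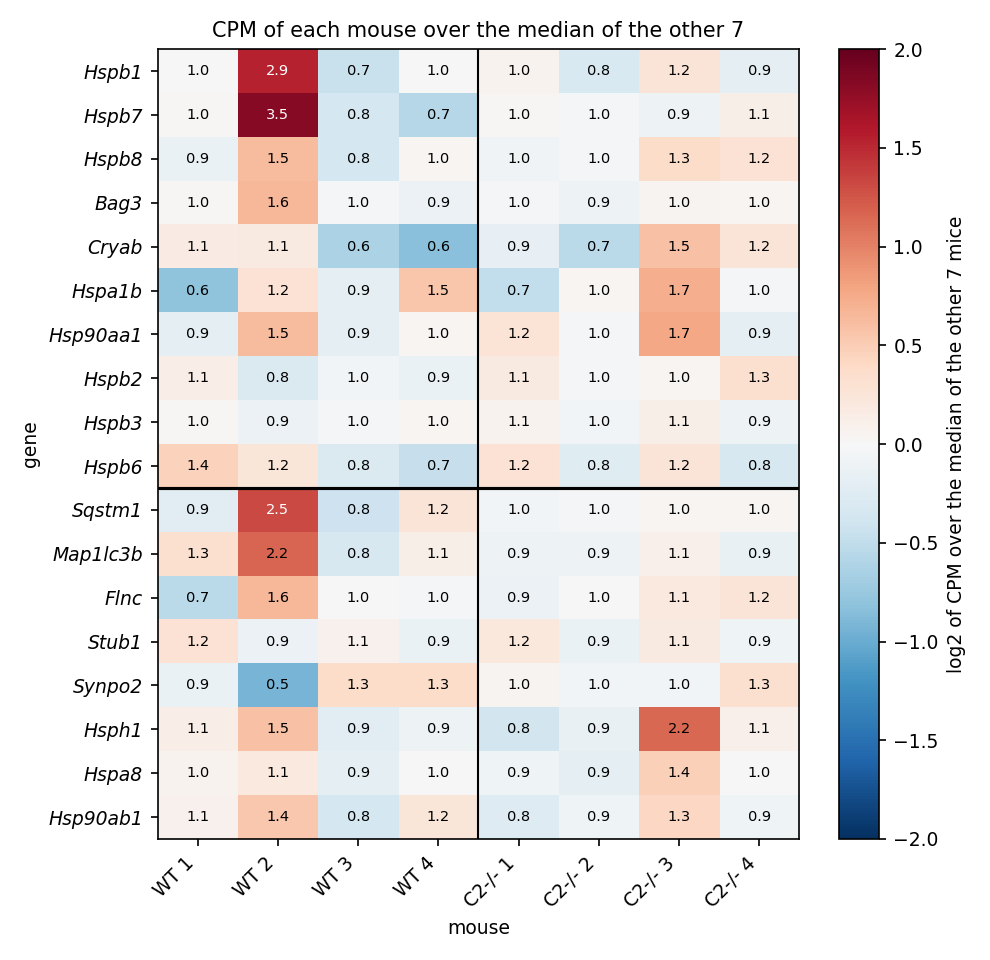
CPM of each mouse over the median of the other 7 mice, as the printed ratio and, in colour, its log2 (scale from -2 to 2), for the 10 genes above the line and 8 companion genes below it. WT 2 is high for *Hspb7*, *Hspb1*, *Sqstm1* and *Map1lc3b* and low for *Synpo2*, and C2-/- 3 is high for *Hsph1*, *Hsp90aa1*, *Hspa1b* and *Cryab*.

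Whether the genes varied together was measured over the 8 mice for all 45 pairs. None of the 45 passed adjustment (smallest adjusted p = 0.227 by Pearson r and 0.163 by Spearman rho, exact pairing permutation test), and the correlation was positive for 34 pairs. *Hspb7* and *Bag3* had a Pearson r of 0.97 (exact permutation p = 0.0087, adjusted p = 0.227) and a Spearman rho of 0.69 (exact permutation p = 0.0694). With the 2 mice farthest from the median of *Hspb7* left out, r was 0.17, so the relation rests on those mice (0.62 without WT 2 alone). The same held for *Hspb1* with *Bag3*, with r of 0.94 (exact permutation p = 0.0283, adjusted p = 0.247) and 0.42 without the 2 farthest mice (0.33 without WT 2 alone). The smallest p by rank was that of *Cryab* with *Bag3* (rho of 0.90, exact permutation p = 0.0046, adjusted p = 0.163), where r was 0.39 (exact permutation p = 0.352, adjusted p = 0.597), 0.22 without the 2 mice farthest by *Cryab* and 0.90 without WT 2. *Hspb1* with *Hsp90aa1* kept its size: r was 0.72 (exact permutation p = 0.0318, adjusted p = 0.247), rho was 0.88 (exact permutation p = 0.0072), and r was 0.76 without the 2 farthest mice and also 0.76 without WT 2. Within WT it was 0.97 and within C2-/- 0.91, each over only 4 mice. *Cryab* and *Hspb2*, which share exonic bases, had an r of only 0.31 (exact permutation p = 0.453, adjusted p = 0.626) and a rho of 0.43 (exact permutation p = 0.299).

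The markers of other cells and states were set beside these values. In bulk muscle, fewer cells of a type and less RNA per cell cannot be told apart. WT 2 had the highest sum of the 6 blood genes, 6260 CPM, where the other mice lay between 478 and 5840 CPM (478 to 6260 CPM in WT, 899 to 5840 CPM in C2-/-). The 10 immediate early genes summed to 1140 CPM in WT 2, and to between 479 and 2230 CPM in WT and between 415 and 1530 CPM in C2-/-. The 5 fibroblast genes summed to between 255 and 371 CPM in WT and between 390 and 505 CPM in C2-/-, with the highest sum in C2-/- 3, and their mean log2 CPM was higher in C2-/- (exact permutation test, two-sided, p = 0.0286, which is the lowest value 4 mice against 4 can give). No gene of these 3 lists was at 0 in every mouse. The sums of the other 8 lists (slow fibre, fast fibre, smooth muscle, endothelial, tendon, macrophage, Schwann cell and adipocyte genes) overlapped between the genotypes. In the relations with the 10 genes, the level of a list was the mean log2 CPM of its tested genes, not the sum. For blood, these were 4 of the 6 genes. Of the 110 relations between the 10 genes and the 11 marker lists, none passed adjustment, and the smallest adjusted p was 0.317, for *Hspb1* with the blood genes (r of 0.94, rho of 0.81, exact permutation p = 0.0029 and 0.0218, and r of 0.59 without the 2 farthest mice). The part of these cells and states in the chaperone values was not tested.

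Among 71 companion genes of the chaperone network, 68 were tested, with 30 higher and 38 lower in C2-/- and a median of -0.02 for their log2 fold changes. Of these, 5 passed at an unadjusted p of 0.05 (2 higher and 3 lower) and 0 at an adjusted p of 0.05 (edgeR), against 5.29% and 0.0319% of all tested genes. Without WT 2, the counts were 42 higher and 26 lower, with 3 at an unadjusted p of 0.05 (*Cdc37*, *Flna* and *Vim*), against 5.9% of all tested genes. The HSP90 co-chaperone *Cdc37*, which loads protein kinases onto HSP90, had the smallest p of the network. It measured 153, 160, 152 and 156 CPM in WT 1 to WT 4 and 126, 101, 117 and 123 CPM in C2-/- 1 to C2-/- 4. All 4 C2-/- mice lay below all WT mice, with a log2 fold change of -0.41 (standard error 0.10, unadjusted p = 0.0027, adjusted p = 0.571, edgeR) and -0.39 without WT 2 (unadjusted p = 0.0038). The mitochondrial HSP90 *Trap1* measured 202, 222, 183 and 200 CPM in WT and 171, 173, 166 and 166 CPM in C2-/-, also without overlap, with a log2 fold change of -0.25 (unadjusted p = 0.0277, adjusted p = 0.882, edgeR) and -0.20 without WT 2 (unadjusted p = 0.0522). *Cdc37* and *Trap1* were the only 2 of the 68 whose ranges did not overlap, against 3.38% of all tested genes.

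The remaining companion lists are given by group. Of the 11 HSP70 and HSP110 genes, 8 were higher and 3 lower in C2-/-, 0 with an unadjusted p under 0.05. *Hspa2* (0.32), *Hspa1a* (0.44) and *Hspa13* (0.11) had the smallest p-values there, as log2 fold changes. Of the 10 HSP40 co-chaperones, which hand clients to HSP70, 8 were lower (5 without WT 2) and 1 passed an unadjusted p of 0.05. This was *Dnajb5*, with a mean of 343 ± 32.6 CPM in WT and 279 ± 40.8 CPM in C2-/- (SD, n = 4 each) and overlapping ranges, and it did not pass adjustment (log2 fold change -0.30, unadjusted p = 0.0415, adjusted p = 0.919, edgeR, and -0.23 with unadjusted p = 0.0942 without WT 2). *Dnajc7* and *Dnajb6* followed with -0.16 and -0.14 (-0.21 and -0.06 without WT 2). Of the 12 HSP90 genes and co-chaperones, 6 were higher and 6 lower (9 and 3 without WT 2), and after *Cdc37* the smallest p-values were those of *Fkbp5* (-1.18, and 0.02 without WT 2) and *Unc45a* (-0.19, and -0.09 without WT 2). *Fkbp5*, a glucocorticoid-responsive immunophilin, measured 205 CPM in WT 2 and 67.9 CPM in C2-/- 3, and between 19.6 and 47.9 CPM in the other mice.

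Of the 5 other BAG genes, 4 were lower, and the smallest p-values were those of *Bag6* (-0.10), *Bag5* (-0.12, and 0.02 without WT 2) and *Bag2* (0.08, and -0.01 without WT 2). The 3 autophagy partners with the smallest p-values were *Map1lc3b* (-0.44), *Sqstm1* (-0.40) and *Synpo2* (0.08). Without WT 2 they stood at -0.08, 0.10 and -0.12, so that *Sqstm1* and *Synpo2* turned, and none of these groups held an unadjusted p under 0.05. Of the 4 genes in the heat shock factor list, 3 were lower, with *Hsf2* at -0.26, *Hsf1* at -0.15 and *Hsf4* at -0.23. The other gene, *Hsbp1*, encodes a heat shock factor binding protein and stood at 0.03 (named after its value had been seen). *Hsf2* and *Hsf4* had their highest values in WT 2 (31.4 and 36.5 CPM). Without that mouse *Hsf2* stood at -0.08, *Hsf1* at -0.12 and *Hsf4* at 0.04, with 2 of the 4 lower. Of the 12 chaperonins and mitochondrial chaperones, 9 were lower, with *Cct2* at -0.19 and *Tcp1* at -0.13 after *Trap1*, and 6 were lower without WT 2, with *Cct2* at 0.02 and *Tcp1* at -0.05. Of the 4 genes listed as other small heat shock proteins, only *Hspb11* was tested (0.13), and it was listed by its name. *Cryaa*, *Hspb9* and *Odf1* did not pass the filter. Among the 8 client structural proteins, *Flna* (0.48, unadjusted p = 0.013) and *Vim* (0.37, unadjusted p = 0.0138) were higher in C2-/- without passing adjustment (adjusted p = 0.766 and 0.778, edgeR), and *Lmna* stood at -0.19 (0.09 without WT 2). *Flna* and *Vim* are also expressed by fibroblasts and vessels. The fibroblast sums given above were higher in C2-/-, and the endothelial and smooth muscle sums overlapped between the genotypes. *Flna* was highest in C2-/- 1 (73.8 CPM), which had the lowest fibroblast sum of C2-/- (390 CPM). *Vim* was highest in C2-/- 3 (128 CPM), which had the highest (505 CPM). The smooth muscle sum was highest in C2-/- 1 (305 CPM), as was *Flna*, and stood at 245 CPM in C2-/- 3. Both the smooth muscle sum (178 CPM) and *Flna* (33.7 CPM) were lowest in WT 2. The part of these cells in the 2 differences was not tested.

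The genes most like *Cryab* and *Hspa1b* over the 8 mice are given as a description, without a test. For *Cryab* they were *Rnf25* (Pearson r of 0.96), *Tpra1* (0.95), *Dpp7* (0.94), *Polr2h* (0.93) and *Zdhhc20* (0.92). For *Hspa1b* they were *Cdc5l* (0.98), *Rrp12* (0.96), *Myh14* (0.95), *Eftud2* (0.95) and *Zc3h13* (0.95). Both lists come from a search over all tested genes over only 8 mice.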

How the data were processed

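Polyadenylated RNA from the TA muscle of 4 WT and 4 C2-/- mice was sequenced by the authors on DNA nanoball arrays, with 1 library per mouse. The authors deposited 1 table with expected counts per gene and TPM values per mouse. The methods name HISAT for alignment to GRCm38.p6 and featureCounts for counting, and the submitters' processing notes list HISAT, Bowtie2 and DESeq2. Strandedness is not given in the sources used here. Between 5.5% and 6.53% of the expected counts of a library were not whole numbers, so the authors' counts are estimates, and reads of near-identical genes may have been divided between them. The authors' FPKM values, group means, fold changes and p-values in the table were not used.

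Of 16687 rows, 16686 had a gene ID, and 25 symbols were restored from gene IDs. Expected counts were rounded and tested with edgeR 4.0.16 in R 4.3.3 (TMM factors between 0.929 and 1.03, default filter on low counts, quasi-likelihood test, Benjamini-Hochberg adjustment over 12542 genes, threshold 0.05). The log2 CPM values used a prior count of 2. Pairs, marker levels and neighbours in level were compared by exact permutation (two-sided) in Python 3.11.15 (scipy 1.17.1, pandas 2.3.3). As alternatives, DESeq2 1.42.0, limma-voom (limma 3.58.1), RLE size factors, other filters, the replicate number as a block, immediate early and slow fibre gene levels as covariates, and leaving out each mouse were tried. Near-identical copies were found with BLAST 2.17.0 in GENCODE vM21. In simulated counts with 200 changed genes among 12428 tested, edgeR called at an adjusted p of 0.05 10% of the genes changed 1.5-fold, 68% of those changed 2-fold and 94% of those changed 4-fold.

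The 10 genes, the companion and marker lists and the tests were chosen with earlier results of these data known. Named companions are the 3 with the smallest p in each list, and named correlates the 5 with the highest r, and genes outside this rule are marked in the text as chosen after their values were seen. No batch is named in the labels. Libraries of a genotype differed by more than sampling noise (chi-square per degree of freedom between 28.9 and 174), so none was counted as a repeat of another.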

Additional observations from a re-analysis of the deposited data

Results flagged for a closer look

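Among 72 groups of 4 mice (36 named genes in each genotype), 10 held a mouse that lay far from the other 3 by Dixon's gap ratio. Chance marks about 1 in 20 groups, and 6.62% of the groups over all tested genes were marked. WT 2 accounted for 6 of the 10 and C2-/- 3 for 3.

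In WT 2, *Hspb7* measured 2336 CPM (452 to 669 CPM in the other 3 WT mice), *Hspb1* 500.3 CPM (127 to 173 CPM) and *Bag3* 466.0 CPM (275 to 300 CPM). Among the companions, *Fkbp5* measured 204.6 CPM in WT 2 (22.2 to 47.9 CPM in the other WT mice), *Hsf2* 31.37 CPM (20.2 to 21.1 CPM) and *Hsf4* 36.55 CPM (19.9 to 20.5 CPM).

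In C2-/- 3, *Hspa1a* measured 3.76 CPM (1.63 to 1.90 CPM in the other 3 C2-/- mice), *Fkbp5* 67.86 CPM (19.6 to 24.3 CPM) and the targeted gene *Mybpc2* 38.35 CPM (3.85 to 4.35 CPM). In C2-/- 4, *Synpo2* measured 968.2 CPM, where the other 3 C2-/- mice lay between 772 and 802 CPM.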

How the results depend on the processing

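In all 16 alternatives, an unadjusted p under 0.05 was found for 0 of the 10 genes. Over the alternatives, 143 of 161 log2 fold changes kept their direction and 18 turned, the largest being that of *Hspb7* without WT 2. Without WT 2, *Hspb1* was at 0.11, *Hspb7* at 0.2872, *Bag3* at 0.0368 and *Hspb6* at 0.0372. The other values for *Hspb6*, close to 0 throughout, were 0.0103 with limma-voom, 0.0065 with at least 10 counts in every library, 0.0103 with the replicate block, 0.0276 with the slow fibre covariate, and between -0.0967 and 0.1259 with each mouse left out. *Hspb8* was at -0.0199 with the slow fibre covariate and between -0.0476 and 0.2926 with each mouse left out. With each mouse left out, *Hspb1* lay between -0.7255 and 0.11, *Hspb7* between -0.8033 and 0.2872, *Bag3* between -0.2427 and 0.0368, *Hspa1b* between -0.1771 and 0.2998 and *Hsp90aa1* between -0.0643 and 0.3679. The cause was not tested. *Cryab*, *Hspb2* and *Hspb3* kept their direction throughout. Of the 25 named companions, also refitted without WT 2 after seeing the data, 8 turned: *Fkbp5* 0.0234, *Bag5* 0.0176, *Bag2* -0.0091, *Sqstm1* 0.0953, *Synpo2* -0.1229, *Hsf4* 0.041, *Cct2* 0.0194 and *Lmna* 0.0866.

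Over all genes, 4 had an adjusted p under 0.05, 30 with DESeq2, and between 4 and 7 with each mouse left out (7 without WT 2). An unadjusted p under 0.05 was reached by 423 genes with the immediate early gene covariate and between 504 and 983 with each mouse left out, against 663. Between 0 and 1 of the 10 genes did not overlap with each mouse left out (1 without WT 1), and 0 without TMM factors. Without WT 2, an alternative added after seeing the data, 36 of the 45 pairs were positive in place of 34.

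The same replicate numbers in both groups are different mice. Their deviations correlated at 0.27, 0.04, -0.05 and 0.02 for numbers 1 to 4, so the numbers do not pair the mice (only number 1 correlated best with its own number), and the replicate block changed no call (0 of 10 genes, 4 genes in all). Depth did not limit these genes, whose lowest count was 60.0, but only 10% of simulated 1.5-fold changes were found after adjustment.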

Other observations

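WT 2, the mouse with the highest *Hspb7*, *Hspb1* and *Bag3*, also differed from the other 7 mice in genes of atrophy, stress and metal binding, a choice made with the values in view. The muscle ubiquitin ligase *Trim63* (MuRF1) measured 682 CPM in WT 2 and between 82.1 and 179 CPM in the other mice. The cell cycle inhibitor *Cdkn1a* measured 405 CPM there and at most 43.1 CPM elsewhere. The metallothionein *Mt2* measured 216 CPM against at most 35.8 CPM, and the acute-phase gene *Lcn2* 44.1 CPM against at most 2.64 CPM. *Pdk4*, a brake on glucose oxidation, measured 1010 CPM against between 129 and 468 CPM, and the autophagy gene *Gabarapl1* 138 CPM against between 21.4 and 31.8 CPM. The stretch-responsive Z-disc gene *Csrp3* measured 35.0 CPM against between 2.5 and 8.37 CPM, and *Xirp1* 478 CPM against between 174 and 285 CPM. The stretch-responsive *Ankrd1* was less apart, at 41.8 CPM against between 5.05 and 35.2 CPM. *Col1a1*, a fibrillar collagen, had its lowest value in WT 2, at 22.1 CPM against between 42.0 and 159 CPM. These values come from 1 mouse, in which 4.58% of all tested genes were more than 2-fold over the median of the other 7 mice. Their relation to the chaperone genes was not tested.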
